A study of Mus musculus with 8 samples.

Results

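The 3 genes of the Rbfox family of splicing regulators, Rbfox1, Rbfox2 and Rbfox3, held 16088 of the 3098854 tags of a Ptbp2 HITS-CLIP experiment in embryonic mouse cortex. In HITS-CLIP, ultraviolet light fixes a protein to its RNA in the tissue, an antibody pulls both down together, and short pieces of the RNA, here called tags, are sequenced. The RNA came from 2 wild-type brains of the CD1 strain at embryonic day 18.5, each of which gave 4 libraries, so brain 2 and brain 1 are the only groups and each is 1 animal. Input RNA, other antibodies and other genotypes were not analysed here, and tag density therefore reflects both binding and the abundance of each transcript. In a whole cortex, fewer cells that express a gene and less of its RNA per cell cannot be told apart.

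A tag was assigned to a gene when its midpoint lay on the gene's strand within a fixed interval of the mm9 assembly. The intervals were chr16:5760000-7415000 on the plus strand for Rbfox1, chr15:76905000-77140000 on the minus strand for Rbfox2 and chr11:118350000-118772000 on the minus strand for Rbfox3. The family was chosen by its tag counts and its dense groups of clusters in these data, so the counts, densities and ranks of the 3 loci are given as descriptions, without a test. An mm9 annotation was not used here, so positions are not assigned to exons, introns or untranslated regions. The names of the 3 genes rest on the intervals alone.

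Rbfox proteins bind RNA at GCAUG elements and steer alternative splicing in neurons and muscle, where the side of an exon on which they bind affects whether it is included. Rbfox1, earlier called A2bp1, is found mainly in neurons, heart and muscle, Rbfox2, earlier called Rbm9, is expressed more broadly, and the Rbfox3 protein is the antigen NeuN, a standard marker of mature neurons. Ptbp2 is the polypyrimidine tract binding protein enriched in developing neurons, and it binds pyrimidine-rich RNA, often in introns, to regulate alternative exons.

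The 8 libraries held between 228424 and 545387 tags, 1165859 in all in brain 2 and 1932995 in all in brain 1, so brain 2 was the shallower. Tags that repeated the position of another tag of their library made up 8.09, 9.11, 11.7 and 18.6% of libraries 1 to 4 of brain 2, and 11.1, 10.03, 12.8 and 12.02% of those of brain 1. In each brain, the sample titles mark libraries 1 and 2 with the letter a and libraries 3 and 4 with the letter b, for which the labels give no meaning. Since the libraries of a brain share 1 animal, every p-value below rests on the spread between libraries, which may be technical. None measures the spread between animals.

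Rbfox1 was by far the fullest of the 3 loci. It held 13585 tags, 0.438% of all tags (exact Clopper-Pearson 95% interval 0.431 to 0.446%), on 1655 kb. Rbfox2 held 1624 tags, 0.0524% (0.0499 to 0.0550%), on 235 kb, and Rbfox3 held 879, 0.0284% (0.0265 to 0.0303%), on 422 kb. These intervals cover counting error only. Per length the order was the same for the first pair but the gap was small, with 82.1 tags per 10 kb in Rbfox1 and 69.1 in Rbfox2, while Rbfox3 had 20.8. Scaled per 1000000 tags of the library (CPM) and per 10 kb, the level of Rbfox1 was above that of Rbfox2 in 7 of 8 libraries, the exception being library 4 of brain 2, while both stood above Rbfox3 in all 8. In brain 2 the mean level was 21.7 ± 2.80 CPM per 10 kb in Rbfox1, 20.7 ± 5.59 in Rbfox2 and 5.76 ± 0.916 in Rbfox3 (SD, n = 4 libraries), and the gap between Rbfox1 and Rbfox2 was smaller than the spread. In brain 1 the means were 29.4 ± 2.08, 23.6 ± 1.80 and 7.30 ± 0.506 CPM per 10 kb (SD, n = 4).

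Against tiles of the same length and strand elsewhere, Rbfox1 held more tags than any tile. The fullest of 3168 other tiles of 1655 kb held 13176 tags, close to the 13585 of Rbfox1. The median tile held 773, of which Rbfox1 held 17.6 times as many. Each Rbfox interval was chosen for its gene, whereas the tiles were cut without regard to genes and can split a dense locus. Whether a stretch placed around another gene would hold more tags than Rbfox1 was not tested. Rbfox2 ranked 74 in a set with 22442 tiles of its length, at 19.6 times their median of 83 tags, and Rbfox3 ranked 393 in a set with 12488 tiles, at 5.39 times their median of 163. Rbfox2, the shortest locus, thus stood about as far above a typical tile of its length as Rbfox1 did.

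The tags were confined largely to the named strand and interval. In the 100 kb on either side, the density fell to 5.0 tags per 10 kb upstream and 7.3 downstream of Rbfox1, to 4.1 and 5.0 around Rbfox2, and to 2.3 and 2.0 around Rbfox3. On the opposite strand within the intervals lay 440 tags at Rbfox1 (3.14% of both strands, 95% interval 2.85 to 3.44%), 15 at Rbfox2 (0.915%, 0.513 to 1.505%) and 47 at Rbfox3 (5.08%, 3.75 to 6.69%). In the RefSeq table of GRCm38.p6, used for names alone, 5 long non-coding genes overlap Rbfox1 (Gm52234, Gm36902, 1700123O21Rik, Gm52235 and Gm36824), 1700109K24Rik and the pseudogene Gm24056 overlap Rbfox2, and Gm11750 overlaps Rbfox3. Tags of such a gene on the same strand cannot be told apart from those of the Rbfox transcript. Full-length tags of 30 nt made up 52.3% of Rbfox1 tags, 53.4% of Rbfox2 tags and 52.8% of Rbfox3 tags, where all tags had 43.1%.

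Between the brains, Rbfox1 was lower in brain 2. It held 3205, 3296, 3670 and 4225 CPM in libraries 1 to 4 of brain 2, against 5099, 5176, 4781 and 4421 CPM in those of brain 1. Each library of brain 2 lay below each of brain 1, and library 4 of both brains lay closest to the other brain. The means were 3599 ± 463 CPM in brain 2 and 4869 ± 344 CPM in brain 1 (SD, n = 4), a ratio of 0.739 and a log2 difference of -0.44. The two-sided exact permutation test gave p = 0.0286, the smallest that 4 against 4 libraries allow.

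For Rbfox2, the broadly expressed member, the brains overlapped. It held 449, 386, 428 and 679 CPM in libraries 1 to 4 of brain 2, against 603, 576, 513 and 526 CPM in those of brain 1. Library 4 of brain 2 was the highest of all 8, and the other 3 of brain 2 were the lowest. The means were 485 ± 131 CPM in brain 2 and 555 ± 42.2 CPM in brain 1 (SD, n = 4), a gap within the spread (log2 difference -0.19, exact permutation p = 0.371). In that library 40.6% of the Rbfox2 tags repeated a position, against 17.5% of Rbfox2 tags over all libraries.

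Rbfox3, the NeuN gene, was intermediate. It held 202, 228, 249 and 293 CPM in libraries 1 to 4 of brain 2, against 337, 299, 309 and 287 CPM in those of brain 1. The groups overlapped only through library 4 of each brain, the highest of brain 2 and the lowest of brain 1. The means were 243 ± 38.7 CPM in brain 2 and 308 ± 21.3 CPM in brain 1 (SD, n = 4), a log2 difference of -0.34 (exact permutation p = 0.0571).

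**Figure D1:**
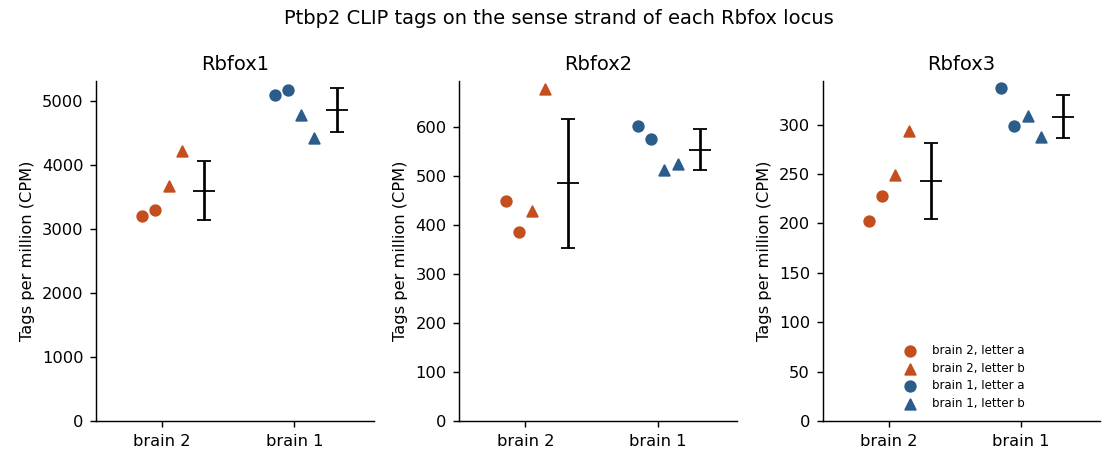
Sense-strand tags scaled to library totals (CPM, from 0) of Rbfox1, Rbfox2 and Rbfox3 in the 4 libraries of brain 2 (left, orange) and of brain 1 (right, blue), circles for letter a and triangles for letter b, with the mean and SD (n = 4) beside each group. Rbfox1 runs from 3205 to 4225 CPM in brain 2, below the 4421 to 5176 CPM of brain 1, while the groups overlap for Rbfox2 and Rbfox3.

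Counting each position once per library lowered the SD of all 3 loci in brain 2 and raised it in brain 1. Rbfox1 then averaged 3400 ± 272 CPM in brain 2 and 4508 ± 347 CPM in brain 1 (SD, n = 4, log2 difference -0.41, exact permutation p = 0.0286). Rbfox2 averaged 429 ± 51.7 CPM in brain 2 and 526 ± 54.0 CPM in brain 1 (-0.30, exact permutation p = 0.0571), and Rbfox3 averaged 246 ± 26.9 CPM in brain 2 and 312 ± 29.997 CPM in brain 1 (-0.35, exact permutation p = 0.0286, with no overlap). The 3 loci under both ways of counting make 6 such tests, and their p-values are raw. Tags at repeated positions were 17.5% of those at Rbfox1, 17.5% at Rbfox2 and 10.01% at Rbfox3, and 11.5% of all tags.

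The difference was larger among libraries of letter a than of letter b. Among letter a libraries, Rbfox1 averaged 3250 CPM in brain 2 and 5137 CPM in brain 1 (log2 difference -0.66), Rbfox2 averaged 417 and 590 CPM (-0.50), and Rbfox3 averaged 215 and 318 CPM (-0.57), in the same order of brains. Among letter b libraries the averages were 3947 CPM in brain 2 and 4601 CPM in brain 1 for Rbfox1 (-0.22), 553 and 520 CPM for Rbfox2 (0.09) and 271 and 298 CPM for Rbfox3 (-0.14). With 2 libraries of a letter in each brain, the difference between letters was not tested.

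The loci were also tested as whole features beside 100-kb strand-specific tiles of all chromosomes with limma voom, where 0.522% of 9954 features passed an adjusted p of 0.05 and 0.241% passed and were lower in brain 2. The features that passed divided as 28 higher and 24 lower in brain 2, and as 10 and 29 when libraries were scaled by total tags. Rbfox1 passed, with a log2 change of -0.38 ± 0.04 (SE, adjusted p = 3.49e-12). Rbfox2 (-0.19 ± 0.10, adjusted p = 0.443) and Rbfox3 (-0.28 ± 0.12, adjusted p = 0.323) did not. The SE of Rbfox1 also draws on the other features of the fit, so its p depends on them. With libraries weighted equally in limma the SE was 0.05 (adjusted p = 6.16e-05), and beside 500-kb tiles it was 0.11 (limma voom adjusted p = 0.0216). The call for Rbfox1 was lost when the libraries that share a letter were summed, which left 2 against 2 (log2 change -0.50, adjusted p = 0.526). In that setting 0 of 22271 features passed and 1674 had an unadjusted p under 0.05. Beside tiles as long as its own interval, where 2.36% of 3184 features passed and 1.79% passed and were lower in brain 2, Rbfox1 changed by -0.48 (adjusted p = 0.00557), Rbfox3 by -0.41 (adjusted p = 0.0417) and Rbfox2 by -0.30 (adjusted p = 0.108). In that fit the call for Rbfox3 was lost with the letter as a random block (adjusted p = 0.0965), where 33 features passed in place of 75, and Rbfox1 kept its call (adjusted p = 0.0102). With the libraries of a letter summed, 0 of 3227 features passed and 296 had an unadjusted p under 0.05. The adjusted p was then 0.452 for Rbfox1 and 0.3003 for Rbfox3.

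Full tiles in general were lower in brain 2. Of the 767 tiles of 100 kb with 400 or more tags, 605 (78.9%) had a negative log2 change in the same fit, the median was -0.16, and 25 passed, 14 of them lower in brain 2. Among these tiles 12.9% changed more negatively than Rbfox1, 25.7% more than Rbfox3 and 44.9% more than Rbfox2, so Rbfox2 lay near their middle. The place of a locus depends on the tiles beside it. In the fit with tiles as long as Rbfox1, full or not, 0.283% of 3184 features changed more negatively than Rbfox1. There 0.754% did so for Rbfox3 and 3.86% for Rbfox2. Together the full tiles held 159131 ± 17612 CPM in brain 2 and 179755 ± 8516 CPM in brain 1 (SD, n = 4, exact permutation p = 0.114). Tiles with fewer than 20 tags ran the other way, with 64565 ± 5783 CPM in brain 2 and 55904 ± 4194 CPM in brain 1 (exact permutation p = 0.0857). Tiles were sorted by their tags over both brains, to which the deeper brain 1 gave more. Depth and brain cannot be told apart here, and the part of depth or of scattered tags in the difference at Rbfox1 was not tested.

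**Figure D2:**
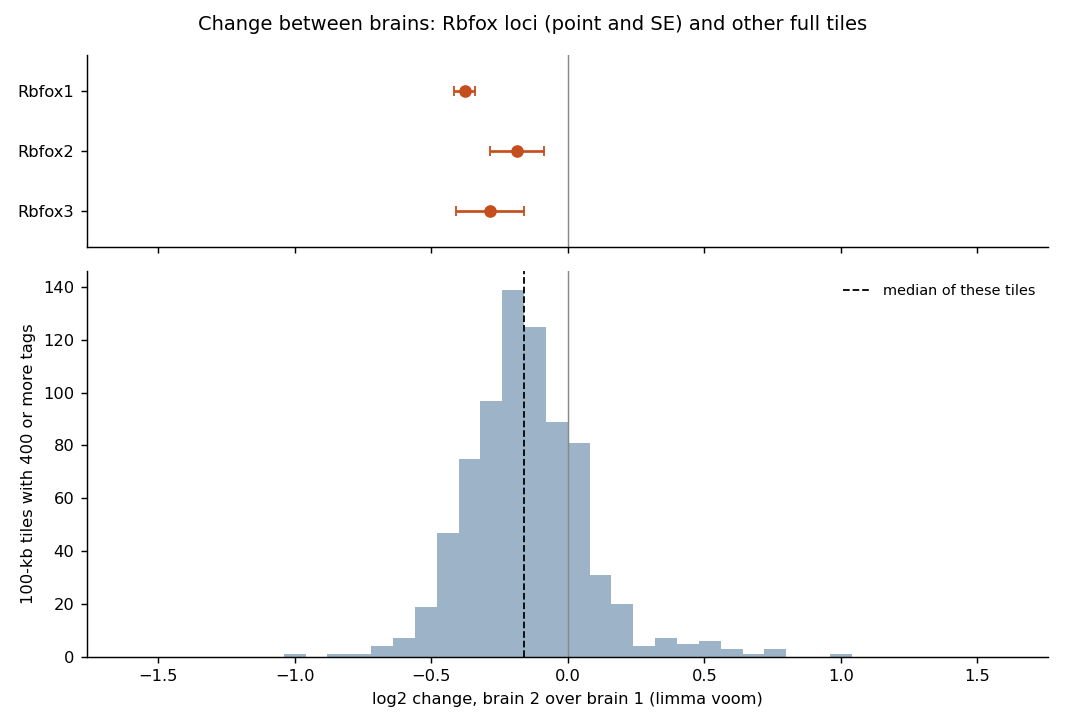
Log2 change of the 3 Rbfox loci (upper panel, points with SE) and the distribution of log2 changes of the 767 tiles of 100 kb with 400 or more tags (lower panel, number of tiles per bin), both brain 2 over brain 1 from limma voom. All 3 points lie left of 0, as does the median of the tiles, at -0.16 (dashed).

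On the opposite strand of Rbfox1 the order of the brains was turned round. There, libraries 1 to 4 held 51, 56, 52 and 38 tags in brain 2, against 70, 57, 50 and 66 in brain 1. Per library size this was 170 ± 15.8 CPM in brain 2 and 126 ± 13.1 CPM in brain 1 (SD, n = 4), a ratio of 1.35 with no overlap between the brains (exact permutation p = 0.0286, the smallest possible). This value was chosen after the data had been seen. The strands opposite to all full tiles together held 5695 ± 447 CPM in brain 2 and 4961 ± 338 CPM in brain 1, a ratio of 1.15 (exact permutation p = 0.0857). The flanks of Rbfox1 on its own strand held 31.4 ± 14.2 CPM in brain 2 and 44.2 ± 6.14 CPM in brain 1 (exact permutation p = 0.2).

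The balance between members within a library does not depend on library size, and for none of the 3 pairs did the test between brains give a p under 0.05. The number of Rbfox1 tags per Rbfox2 tag was 7.62 ± 1.14 in brain 2 and 8.79 ± 0.437 in brain 1 (SD, n = 4, log2 difference -0.22, exact permutation p = 0.171). Rbfox1 tags per Rbfox3 tag numbered 14.9 ± 0.684 in brain 2 and 15.8 ± 1.01 in brain 1 (-0.09, exact permutation p = 0.143), with a range of 14.4 to 17.3 over all 8 libraries. Rbfox2 tags per Rbfox3 tag numbered 1.99 ± 0.327 in brain 2 and 1.80 ± 0.110 in brain 1 (0.13, exact permutation p = 0.371). The 3 ratios were chosen after the data had been seen and their p-values are raw. Over the 8 libraries, log2 CPM of Rbfox1 had a Pearson r of 0.95 with Rbfox3 and 0.75 with Rbfox2, and Rbfox2 had one of 0.77 with Rbfox3. Points of these correlations share a library and its depth.

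The 100-kb tiles whose levels over the 8 libraries were most like those of a locus were sought among the 767 full tiles. For Rbfox1 they began at 34500001 on the plus strand of chromosome 9 (r = 0.98), at 3200001 on the minus strand of chromosome 1 (r = 0.98) and at 109500001 on the minus strand of chromosome 10 (r = 0.96), where the median tile had r = 0.67. For Rbfox2 they began at 32500001 on the minus strand of chromosome 10 (r = 0.96), at 91000001 on the plus strand of chromosome 12 (r = 0.95) and at 170300001 on the minus strand of chromosome 1 (r = 0.95), with a median of 0.56. For Rbfox3 they began at 55200001 on the plus strand of chromosome 3 (r = 0.98), at 6500001 on the minus strand of chromosome 2 (r = 0.97) and at 90900001 on the minus strand of chromosome 17 (r = 0.97), with a median of 0.65. No tile was shared between the 3 lists.

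Along the transcripts the members differed in where the tags lay. Cut into 3 stretches of equal length in the direction of transcription, Rbfox1 held 27.3% of its tags upstream, 39.4% in the middle and 33.3% downstream, or 67.1, 97.1 and 82.0 tags per 10 kb. Rbfox2 held 22.3, 30.4 and 47.3% in the same order, or 46.2, 63.1 and 98.0 tags per 10 kb, so its density was highest at the downstream end. Rbfox3 held 49.1, 26.6 and 24.2%, or 30.7, 16.6 and 15.1 tags per 10 kb, so its density was highest at the upstream end. The downstream share did not differ between the brains beyond the spread at any locus. It was 33.4 ± 1.42% in brain 2 and 33.2 ± 1.099% in brain 1 for Rbfox1, a difference of 0.18 percentage points (SD, n = 4, exact permutation p = 0.886). For Rbfox2 it was 45.5 ± 5.34% in brain 2 and 48.4 ± 3.80% in brain 1, a difference of -2.89 points (exact permutation p = 0.486), and for Rbfox3 23.2 ± 9.01% in brain 2 and 24.3 ± 7.74% in brain 1, a difference of -1.12 points (exact permutation p = 0.857).

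In windows of 10 kb, tags covered the whole of each locus unevenly, and 0 of the windows were empty. The 165 whole windows of Rbfox1 had a median of 64 tags and ranged from 2 to 332. Of these, 51 (30.9%) held 100 tags or more, while 7 held fewer than 10. Of the 389611 windows of the genome with at least 1 tag, 0.518% held 100 or more. The fullest 16 windows of Rbfox1 held 28.0% of its tags. Rbfox2 had a median of 54 tags over 23 windows, from 21 to 196, and 5 of them held 100 or more. Rbfox3 had a median of 15 over 42 windows, from 2 to 108, and 1 held 100 or more. The profile along a locus was alike in both brains, with a Pearson r between the brains' mean CPM of 0.94 over the 165 windows of Rbfox1, 0.92 over the 23 of Rbfox2 and 0.84 over the 42 of Rbfox3. These correlations describe positions along 1 transcript, which share its base composition.

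**Figure D3:**
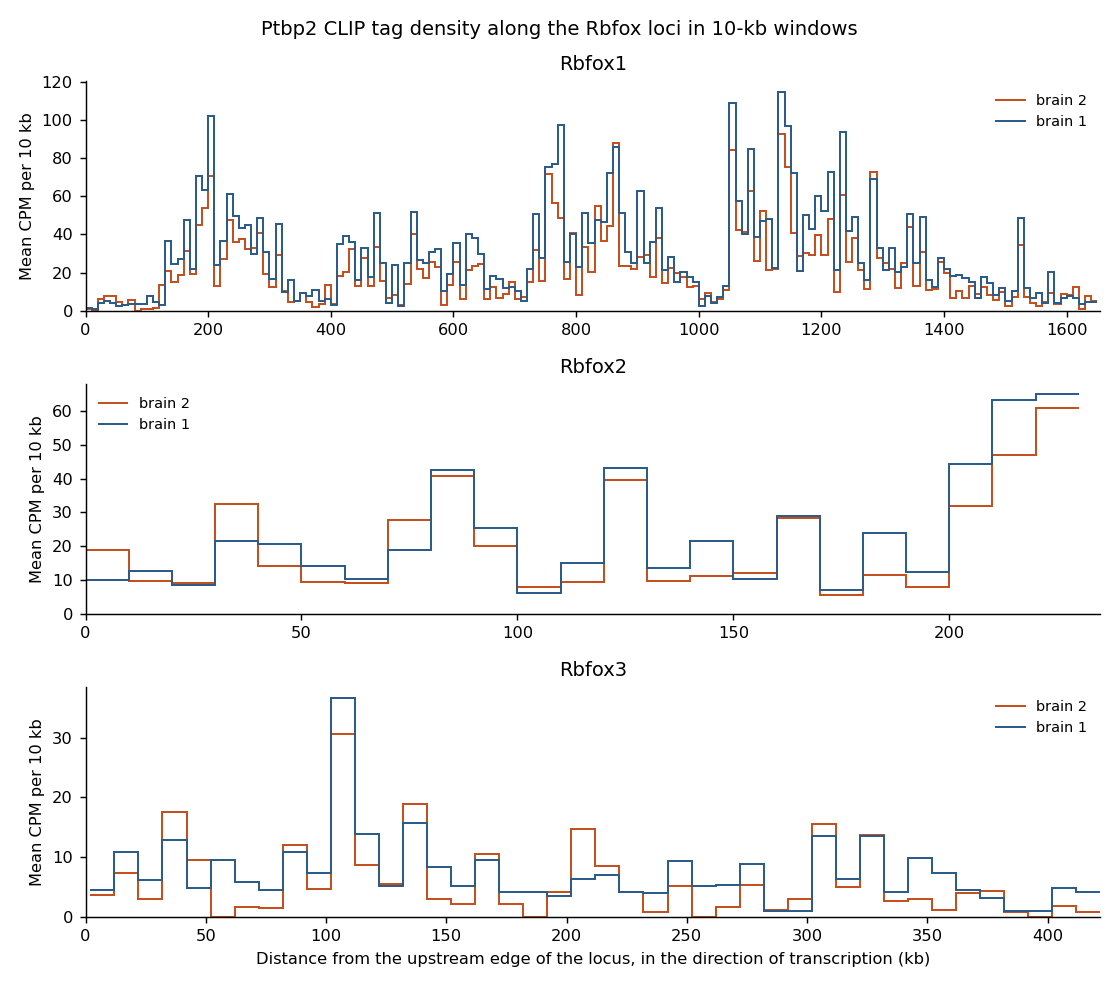
Mean CPM in 10-kb windows of brain 2 (orange) and brain 1 (blue) against the distance in kb from the upstream edge of each locus in the direction of transcription. Rbfox1 shows several blocks of high windows, Rbfox2 is highest at its downstream end, and Rbfox3 has a single high window near 107 kb.

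Of the 3 fullest windows of Rbfox1, each of these stretches held one. That from 6890001 to 6900000 held 332 tags, with 23, 25, 40 and 21 in libraries 1 to 4 of brain 2, against 69, 36, 68 and 50 in brain 1. Its levels of 92.8 ± 17.6 CPM in brain 2 and 115 ± 29.5 CPM in brain 1 overlapped (SD, n = 4, limma voom over 3757 windows, log2 change -0.07, adjusted p = 0.937). The window from 6810001 to 6820000 held 310 tags, at 84.5 ± 22.7 CPM in brain 2 and 109 ± 22.1 CPM in brain 1 (-0.20, adjusted p = 0.782). The window from 5960001 to 5970000, in the upstream stretch, held 276 tags and the tallest cluster of the family. It had 16, 18, 20 and 25 tags in brain 2, against 50, 46, 55 and 46 in brain 1. Library 4 of brain 2, at 109 CPM, lay among the libraries of brain 1, and its other 3 libraries, at 54.7 to 59.8 CPM, lay below them. The means were 70.7 ± 26.0 CPM in brain 2 and 102 ± 12.1 CPM in brain 1 (-0.40, adjusted p = 0.468).

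Of the 3 fullest windows of Rbfox2, 2 lay side by side at its downstream end and the other lay in its middle stretch. From 76910001 to 76920000 lay 196 tags, with 14, 19, 20 and 17 in libraries 1 to 4 of brain 2, against 38, 33, 26 and 29 in brain 1. This window had 60.8 ± 9.50 CPM in brain 2 and 65.0 ± 7.14 CPM in brain 1 (SD, n = 4, limma voom log2 change 0.09), and scaling by total tags gave a log2 change of -0.10. The next window held 175 tags, at 47.1 ± 15.8 CPM in brain 2 and 63.2 ± 16.6 CPM in brain 1 (-0.24). The window from 77010001 to 77020000 held 130 tags, at 39.4 ± 12.9 CPM in brain 2 and 43.3 ± 15.9 CPM in brain 1 (0.07, or -0.15 with total tags). CPM refers to total tags and the log2 change to the trimmed scaling, and the signs of these 2 small differences turn between them. Across the 3, the libraries of the brains overlapped.

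Rbfox3 had 1 window far above the rest, from 118660001 to 118670000, in its upstream stretch. It held 108 tags, with 7, 9, 10 and 9 in libraries 1 to 4 of brain 2, against 35, 16, 10 and 12 in brain 1. Library 1 of brain 1 gave the most and the other libraries were close to each other. The level was 30.6 ± 6.03 CPM in brain 2 and 36.6 ± 19.2 CPM in brain 1 (SD, n = 4, limma voom log2 change -0.01). The next windows, from 118630001 with 51 tags and from 118460001 with 45, were below the count filter of the test.

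No window of the 3 loci passed the limma voom test between the brains, in which 1.20% of 3757 windows passed and 0.0266% passed and were lower in brain 2. Among the 71 windows of Rbfox1 that met the count filter, 61 were lower in brain 2 and 10 had an unadjusted p under 0.05, all of them lower, and the median log2 change was -0.31, within a range of -1.13 to 0.41. Over all windows tested, 50.4% were lower, the median was -0.01, and 388 (10.3%) had an unadjusted p under 0.05. In 11 of the 71 each library of brain 2 lay below each of brain 1 in CPM, against 222 of all 3757 windows tested (5.91%). The reverse order held in 0 of the 71 and in 1.54% of all windows tested. The filter could be met by the libraries of either brain alone. A window could thus enter through the brain in which it was higher, which at Rbfox1 was mostly brain 1. Scaling by total tags moved the median of all windows to -0.21 and that of Rbfox1 to -0.52, so the distance between them was -0.30 under the trimmed scaling and -0.31 under total tags. Of Rbfox2, 6 windows were tested and 3 were lower, with a median of -0.09 and a smallest adjusted p of 0.555. Of Rbfox3, 1 was tested.

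The window of Rbfox1 with the smallest p, named after its values were seen, ran from 6530001 to 6540000. It held 13, 16, 23 and 7 tags in libraries 1 to 4 of brain 2, against 55, 41, 51 and 42 in brain 1. Each library of brain 2 was lower than each of brain 1. The means were 48.8 ± 15.04 CPM in brain 2 and 97.7 ± 10.4 CPM in brain 1 (SD, n = 4), which limma voom gave as -0.79 ± 0.22 on the log2 scale (SE, adjusted p = 0.0751). Over 15 alternative settings the adjusted p ran from 0.0532 to 0.352.

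Tags of all libraries that overlapped by 1 nt or more on a strand were joined into clusters, and the height of a cluster is the largest number of its tags over one base. At a height of 10 or more Rbfox1 had 209 clusters, or 12.6 per 100 kb, Rbfox2 had 27, or 11.5 per 100 kb, and Rbfox3 had 5, or 1.18 per 100 kb. These clusters held 31.3% of the Rbfox1 tags, 28.1% of the Rbfox2 tags and 9.44% of the Rbfox3 tags, against 15.7% of tags in the whole series. Rbfox1 clusters had a median height of 14, the same as all 22803 clusters of the series, and a median width of 49 nt, against 42 nt. Clusters at least 20 tags high numbered 54 in Rbfox1 (25.8%), 2 in Rbfox2 (7.41%) and 1 in Rbfox3, against 26.1% in the series. Clusters with more than 50% of their tags at one position numbered 63 in Rbfox1 (30.1%), 7 in Rbfox2 (25.9%) and 1 in Rbfox3, against 33.4%. Only Rbfox1 had clusters of height 10 or more on its opposite strand, 3 in number.

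The clusters of Rbfox1 came in blocks. By stretch, 40 lay upstream, 92 in the middle and 77 downstream, and neighbouring clusters were separated by a median of 2639.5 nt, with 26 gaps of 200 nt or less. The longest gap ran for 108 kb from 6074456 to 6182874. Linking clusters no more than 20 kb apart gave 16 groups in Rbfox1, of which the largest, from 6809381 to 7201718, spanned 392 kb with 93 clusters and 1829 tags and ranked 2 by number of clusters among 13783 groups. The next of Rbfox1, from 6513169 to 6641778, held 41 clusters and ranked 13. In Rbfox2, 17 of the 27 clusters lay in the downstream stretch, and its largest group, from 76909969 to 76951040, held 15 clusters and 276 tags. Rbfox3 had 4 groups, of which 3 were single clusters.

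**Figure D4:**
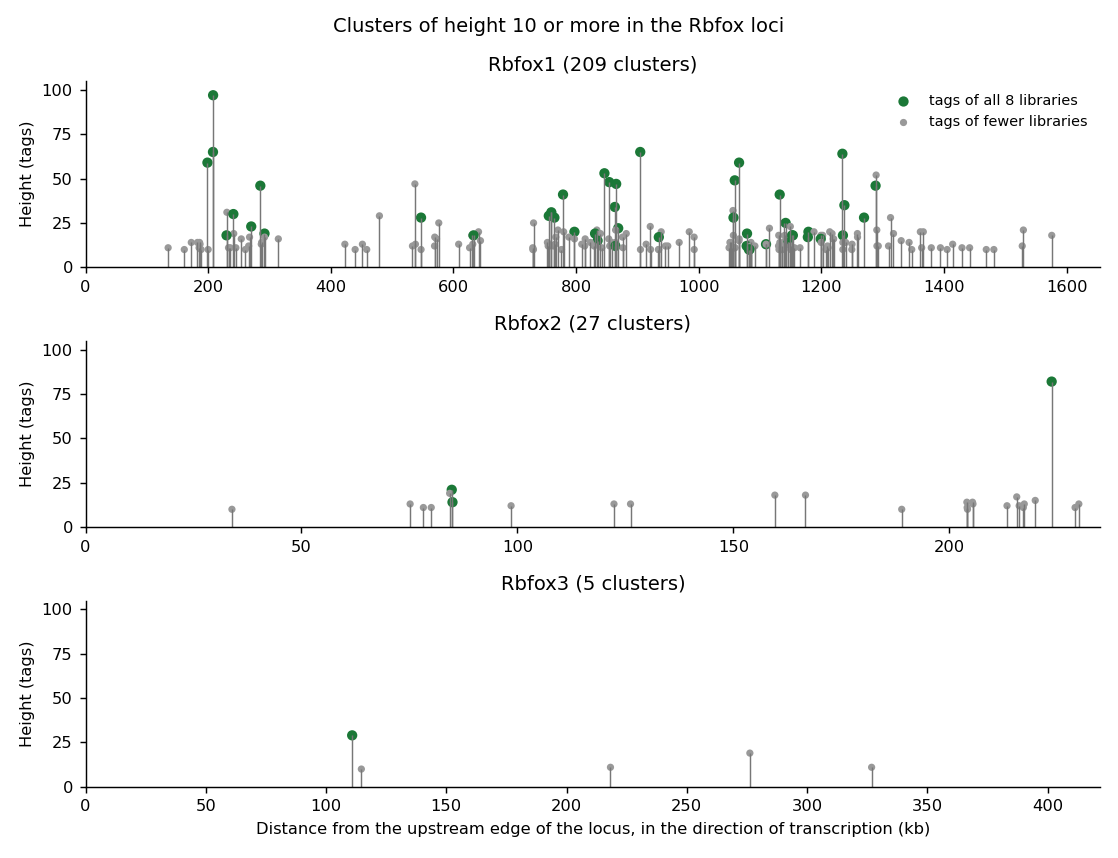
Height in tags of each cluster of height 10 or more against its distance in kb from the upstream edge of the locus, in the direction of transcription, for Rbfox1 (209 clusters), Rbfox2 (27) and Rbfox3 (5), with green points for clusters that hold tags of all 8 libraries and grey points for the others. Rbfox1 has clusters along most of its length with its tallest near the upstream end, Rbfox2 has its tallest near the downstream end, and Rbfox3 has few.

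The tallest cluster of the family lay in Rbfox1 at chr16:5968025-5968070 and reached a height of 97. Its 97 tags divided as 7, 8, 6 and 6 over libraries 1 to 4 of brain 2, against 21, 18, 20 and 11 over those of brain 1. The counts of brain 2 were all below those of brain 1, whose libraries were deeper. Scaled to depth the brains overlapped, and the cluster held 23.6 ± 4.09 CPM in brain 2 and 36.2 ± 8.78 CPM in brain 1 (SD, n = 4, limma voom over 466 clusters, log2 change -0.81 ± 0.39, adjusted p = 0.249). A single position held 49.5% of its tags, and 43 tags remained with each position counted once per library. Ending 74 nt before it was a second cluster, chr16:5967771-5967950, with 102 tags and a height of 65, which was spread more widely over its 180 nt. Its tags divided as 7, 4, 10 and 16 in brain 2, against 10, 17, 18 and 20 in brain 1 (limma voom log2 change -0.34, adjusted p = 0.658). Its mean level was nearly the same in both, 34.4 ± 24.9 CPM in brain 2 and 34.3 ± 10.9 CPM in brain 1 (SD, n = 4), with library 4 of brain 2 the highest of all 8. The log2 change averages the libraries on the log scale and was -0.38 with total tags. The counts overlapped through libraries 3 and 4 of brain 2.

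The other tall clusters of Rbfox1 lay at chr16:6664512-6664571 (height 65), chr16:6994157-6994222 (height 64) and chr16:5958765-5958859 (height 59), and each held tags of all 8 libraries. The first had 1, 7, 3 and 3 tags in brain 2, against 16, 16, 15 and 7 in brain 1. The second had 7, 3, 5 and 2 in brain 2, against 16, 10, 13 and 9 in brain 1, and the third had 5, 4, 10 and 5 in brain 2, against 9, 8, 13 and 10 in brain 1. Brain 1 gave most of the tags of each, and most tags of the series. Per library size the first held 11.7 ± 7.42 CPM in brain 2 and 27.9 ± 8.99 CPM in brain 1 (SD, n = 4). The second held 14.7 ± 8.13 CPM in brain 2 and 24.7 ± 4.94 CPM in brain 1, and the third 20.5 ± 7.14 and 20.9 ± 5.35 CPM. These 3 were below the count filter.

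The tallest cluster of Rbfox2, at chr15:76916265-76916332 in the fullest window of that locus, reached a height of 82 with 85 tags. They divided as 5, 9, 9 and 9 over libraries 1 to 4 of brain 2, against 17, 16, 10 and 10 in brain 1, and the brains overlapped after scaling. Its level was 28.0 ± 8.55 CPM in brain 2 and 27.3 ± 6.83 CPM in brain 1 (SD, n = 4, limma voom log2 change -0.12 under the trimmed scaling, adjusted p = 0.871), and scaling by total tags gave a log2 change of 0.0046. The next tallest of Rbfox2 stood far lower. They were chr15:77055169-77055232 (height 21), chr15:77055675-77055708 (height 19), chr15:76973281-76973311 (height 18) and chr15:76980370-76980408 (height 18).

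In Rbfox3 the tallest cluster lay at chr11:118661090-118661167, within its fullest window, with 32 tags and a height of 29. Its tags divided as 3, 2, 3 and 2 in brain 2, against 8, 4, 6 and 4 in brain 1, so each library held it. Of the other 4, chr11:118495750-118495786 reached a height of 19, with 3, 2, 0 and 0 tags in brain 2, against 3, 2, 2 and 7 in brain 1. The rest, chr11:118445125-118445173 (height 11), chr11:118553711-118553748 (height 11) and chr11:118657284-118657329 (height 10), held between 10 and 11 tags.

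Of the 466 clusters of the series that could be tested between brains, 6 (1.29%) passed in limma voom. Rbfox1 had 2 among the 466 and Rbfox2 had 1, which are the tall clusters described above. Of these 3, 0 passed and 1 had an unadjusted p under 0.05, as did 90 of all 466. The count filter therefore left most Rbfox clusters without a test.

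Sites recurred between the brains. Of the 209 clusters of Rbfox1, 205 held tags of both brains and 4 held tags of brain 1 alone, while all of those of Rbfox2 and Rbfox3 held both. Of all 22803 clusters of the series, 22597 held tags of both brains and 199 held tags of brain 1 alone. These clusters were called on the pooled tags of all libraries, so few could lack a brain. Tags of all 8 libraries were present in 46 (22.01%) of the Rbfox1 clusters, 3 of the Rbfox2 clusters and 1 of the Rbfox3 clusters, and in 23.8% of those of the series. When clusters of height 5 or more were called in each brain alone, 116 of 139 Rbfox1 clusters of brain 2 (83.5%, 95% interval 76.2 to 89.2%) overlapped one of brain 1, and 115 of 401 of brain 1 (28.7%) overlapped one of brain 2. The lists differ in length because brain 1 was deeper. Over the series, the shares were 66.7% of the clusters of brain 2 and 33.0% of those of brain 1. For Rbfox2 the overlap covered 11 of 17 in brain 2 and 11 of 43 in brain 1, and for Rbfox3 it covered 2 of 6 and 2 of 13.

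Exact 5′ ends of tags recurred as well. Of 2875 distinct ends of Rbfox1 tags in brain 2, 861 (29.9%) were also ends in brain 1, and at a shift of 50 nt, averaged over both directions, 40 were. For Rbfox2 the counts were 98 of 372 (26.3%), with 1 at the shift, and for Rbfox3 35 of 225 (15.6%), with 0.5 at the shift. Over all tags 18.9% of the ends of brain 2 recurred in brain 1, and 0.383% did so at the shift. At the shift the share was 1.39% for Rbfox1, 0.269% for Rbfox2 and 0.222% for Rbfox3. Denser loci have more ends that can coincide, and the order of the 3 loci in the share that recurred follows their tags per 10 kb.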

How the data were processed

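The authors deposited a single list of mapped tags with their coordinates and strand. Each tag's name begins with a code, the title of its library without the leading WT, all 8 codes occur, and 0 tags lacked one. The deposited score column held 0 in each row and was not used. Per the submitters' processing notes, Bowtie was used (no version given), and mm8 and mm9 are named as builds. Tags of chromosome 1 reach position 197194446, which lies within mm9 and past the end of that chromosome in mm8. The sources used here do not say how repeated or multiply mapping reads were treated upstream.

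Tags were counted from the rows per library for each Rbfox interval, for strand-specific tiles of 100 kb and windows of 10 kb by midpoint, and for clusters (overlap of 1 nt, height of 10 or more). Because the file is not a count table, these tag counts were tested with voom of limma 3.58.1 in R 4.3.3, after scaling libraries by trimmed mean log ratios, with 30% of ratios and 5% of levels cut off at each end. A feature was tested if it had 15 tags in total and if at least 4 libraries reached the CPM equal to 10 tags at median depth. With a library left out or letters summed, fewer than 4 had to reach it, so the set of features tested also changed. The alternative without this filter asked for 20 tags in total. The Benjamini-Hochberg adjustment ran over all features, with a threshold of 0.05. CPM is tags per 1000000 tags of the library. Single values were compared with two-sided exact permutation tests (SciPy 1.17.1), and shares carry Clopper-Pearson 95% intervals.

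The members, the intervals and the lists were chosen with earlier results of these data known. Named by rule were the 3 fullest windows and the 5 tallest clusters of each locus, any window or cluster past the threshold, and the 3 most similar tiles. Alternatives were other scalings, no count filter, repeated positions counted once, the replicate number as a block, the letter as a block, each library left out, other tile lengths, 2 stretches of a locus in place of 3, a cluster height of 20 and an overlap of 10 nt. Summing libraries of a letter, tiles as long as Rbfox1 and equal weights were added after the data were seen. Other splicing regulators, cell type markers and sequences of the sites need an mm9 genome or annotation and are not analysed here.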

Additional observations from a re-analysis of the deposited data

Results flagged for a closer look

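Dixon's test was run on 84 values, each within the 4 libraries of a brain, and in 4 of them a single library stood apart. By chance about 1 in 20 would. Library 4 of brain 2, the shallowest and the one with the most repeated positions, gave 2 of them. In it 28.4% of the Rbfox3 tags repeated a position, against 1.33 to 5.56% in the other libraries of that brain, and the Rbfox1 window that starts at 5960001 held 109 CPM, against 54.7 to 59.8 CPM. Library 2 of brain 1 had 17.3 Rbfox1 tags per Rbfox3 tag, against 15.1 to 15.5 in the other libraries of that brain. Library 4 of brain 1 held 14.9 CPM of the Rbfox3 cluster that starts at 118495750, which is 7 tags, against 4.35 to 5.50 CPM in the others.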

How the results depend on the processing

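All 20 alternatives for each locus kept the negative direction. Rbfox1 ranged from -0.53 to -0.32 and lost its call when libraries of a letter were summed, beside 100-kb tiles (-0.50, limma voom adjusted p = 0.526) and beside tiles of its own length (-0.50, adjusted p = 0.452); summing leaves 2 against 2. Rbfox3 passed beside those long tiles (-0.41, adjusted p = 0.0417) and under no other alternative. Leaving out one library gave -0.47 to -0.36 for Rbfox1, -0.36 to -0.13 for Rbfox2 and -0.39 to -0.24 for Rbfox3. The same replicate numbers in both brains do not pair the samples (correlations of deviations from -0.060 to -0.022), and the fit with a replicate block gave -0.37 for Rbfox1, -0.15 for Rbfox2 and -0.28 for Rbfox3, with 60 tiles, 40 windows and 5 clusters called over the series. In the loci, 0 windows passed under 15 alternatives and 0 clusters under 17. With positions counted once no Rbfox cluster was tested, and a height of 20 or more left the same 466 clusters. These cluster alternatives could not differ from the main fit, and most of the others tested few Rbfox clusters. Over the series, 45 of 3757 windows passed, against 8 of 3757 with total tags and 10 of 34816 without the count filter. With positions counted once 14 of 2346 passed, with letters summed 5 of 13387, and without library 1 of brain 1 16 of 3179. The 52 of 9954 tiles became 18 of 36964 without the filter and 15 of 9954 with equal weights. They became 23 of 9221 without library 1 of brain 1 and 31 of 9152 without its library 2. Without library 1 of brain 2 they were 19 of 12910, and without its library 2 they were 20 of 13080. The 6 of 466 clusters, 5 higher and 1 lower in brain 2, became 15 of 466 with total tags, all higher. They became 3 of 432 without library 1 of brain 1. With letters summed, 0 of 1982 passed and 156 had an unadjusted p under 0.05.

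Small changes turned sign, and the cause was not tested. Without one library, the Rbfox1 window at 6890001 ran from -0.28 to 0.046, the Rbfox2 window at 77010001 from -0.13 to 0.23, the Rbfox3 window at 118660001 from -0.21 to 0.30, the Rbfox1 cluster at 5967771 from -0.67 to 0.061 and the Rbfox2 cluster at 76916265 from -0.25 to 0.044. The Rbfox2 window at 76910001 was -0.066 without the filter and -0.10 with total tags, and that at 77010001 was -0.091 and -0.15. The Rbfox3 window was 0.24 with positions counted once, and the Rbfox2 cluster 0.0046 with total tags. The downstream share of Rbfox1 differed by -0.054 points with positions counted once. Without one library it ran from -0.27 to 0.77 points for Rbfox1, from -4.25 to -0.40 for Rbfox2 and from -5.38 to 1.68 for Rbfox3. Depth limits Rbfox3 most, with 1 window and 0 clusters tested.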
